A study of Mus musculus with 6 samples.

Results

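The genes of the IL-1 family, TNF and the inflammasome were examined in bone marrow-derived macrophages (BMDMs) of WT and PYK2 KO mice. The 10 genes were chosen by symbol as Il1b, Il1rn, Il18, Il1rl2, Nlrp3, Pycard, Casp1, Tnf, Tnfrsf1a and Tnfrsf1b, and all 10 were found among the 55291 genes listed in the count matrix. The RNA came from 3 WT and 3 PYK2 KO mice, both C57BL/6, whose bone marrow cells were cultured for 7 days in medium with L929-conditioned DMEM as the source of M-CSF. The protocol names no inflammatory stimulus. Each mouse gave 1 library, numbered 1, 5 and 6 for WT and 2, 3 and 4 for PYK2 KO. The knockout is of the whole animal, so the bone marrow cells carried it before they became macrophages. The age and sex of these mice are not given in the sources used here.

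IL-1β, IL-18 and TNF are the inflammatory cytokines that macrophages are best known for. IL-1β and IL-18 are made as inactive precursors that caspase-1 cleaves once a sensor such as NLRP3 and the adaptor ASC have assembled into an inflammasome, and in macrophages the transcripts of Il1b and Nlrp3 are typically raised through NF-κB after a microbial or cytokine signal. TNF is made as a membrane protein, is released by the protease ADAM17, and acts through the receptors TNFR1 and TNFR2.

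The libraries held between 2857097 and 3917207 counts, at the 3′ ends of polyadenylated transcripts. The deleted gene Ptk2b averaged 195 ± 5.63 CPM in WT mice and 21.8 ± 1.14 CPM in PYK2 KO mice. CPM stands for counts per 1000000 counts in a library, over the genes that passed edgeR's filter on low counts, scaled with its TMM method. A value after ± is the SD of 3 mice. All 17 genes of a macrophage marker list (among them Lyz2, Csf1r, Cd68 and Adgre1) were counted well enough to be tested, and their summed level ran from 38099.7 to 39651 CPM in WT and from 38874 to 40487 CPM in PYK2 KO libraries. B2m parted the libraries in a way that the labels do not explain, with 3803, 3020 and 5102 counts in WT library 1 and PYK2 KO libraries 3 and 4 and 939, 607 and 1631 in WT libraries 5 and 6 and PYK2 KO library 2, and its part in the values below was not tested.

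Of the 10 genes, 7 passed edgeR's filter on low counts and were tested, and none of these 7 differed between genotypes at an adjusted p-value under 0.05. Here and below, the adjusted p-value is that of edgeR's quasi-likelihood F test on genotype, with the Benjamini-Hochberg method over all tested genes. Over all 9815 tested genes 25 passed, or 0.255%. At an unadjusted p-value under 0.05 there were again 0 of the 7 genes, against 6.03% of all tested genes. DESeq2 and limma-voom also called 0 of the 7. Their median log2 fold change was 0.01, with 4 above and 3 below 0, and that of all tested genes was 0.0019. The genes that were not tested were Il1b, Casp1 and Il1rl2, whose counts are given below. In bulk RNA, fewer cells that express a gene and less RNA per cell cannot be told apart.

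**Figure D1:**
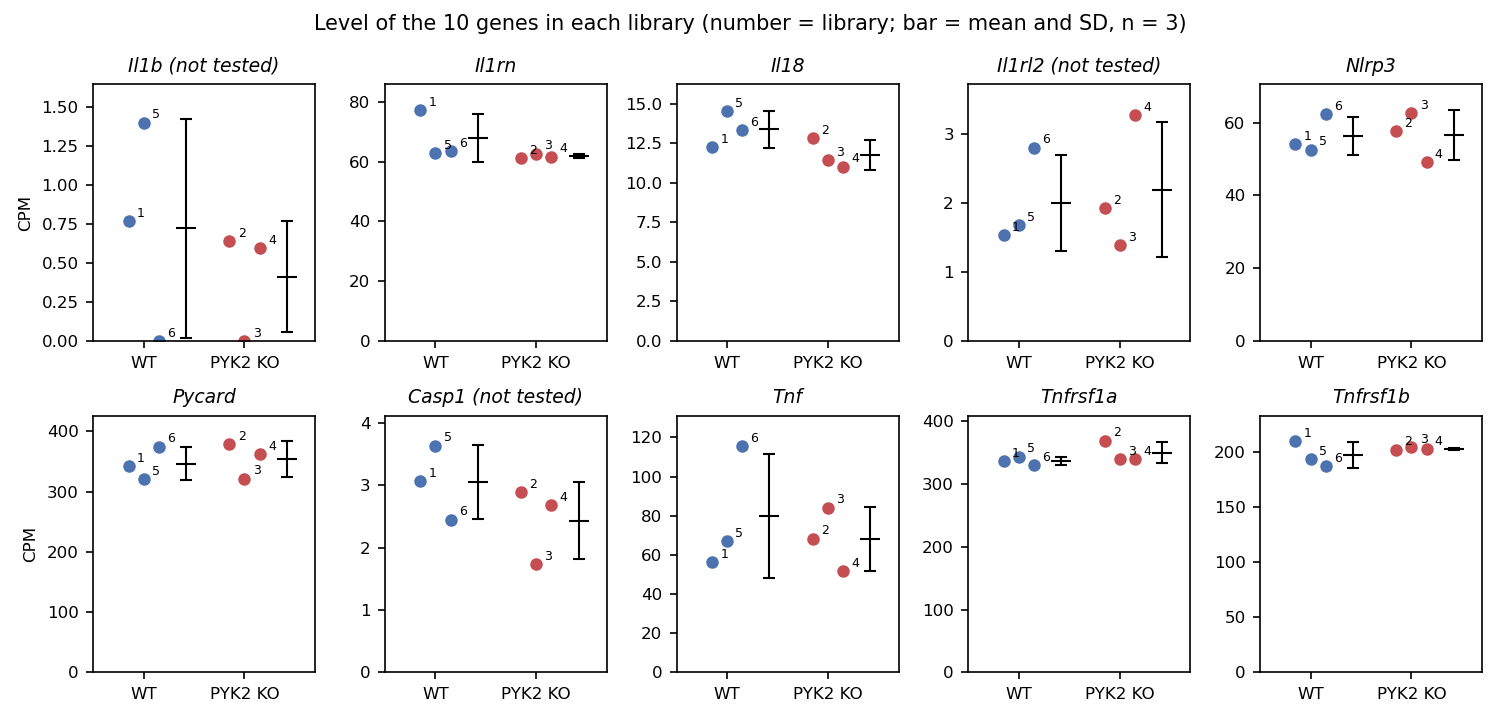
Level in CPM (vertical axes, each from 0 and on its own scale) of the 10 genes in the 3 WT and 3 PYK2 KO libraries, with the library number beside each point and the mean and SD (n = 3) as a bar. The genotypes overlap for 9 of the 10 genes, Il1b stays under 1.5 CPM everywhere, and Tnf stands highest in WT library 6 at 116 CPM.

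Among the ligands, Il1b encodes IL-1β, lies on the minus strand of chromosome 2 from 129364570 to 129371139 (GRCm38, GENCODE M21, as for all positions below) and was close to undetected. It had 3, 5 and 0 counts in WT libraries 1, 5 and 6, and 2, 0 and 2 counts in PYK2 KO libraries 2, 3 and 4. With the floor of a library set at 3 counts, Il1b was at or under it in 5 of 6 libraries. The 8 WT and 4 PYK2 KO counts gave a ratio of PYK2 KO to WT, per count sequenced, of 0.556 with an exact 95% interval from 0.122 to 2.07, which covers counting error only. A difference within that interval was therefore not detectable at this depth. A count of 0, as in WT library 6 and PYK2 KO library 3, allows a level of up to 1.05 and 1.04 CPM of the unscaled library totals. Il1a, the gene of IL-1α, had 1 count in each of PYK2 KO libraries 2 and 3 and 0 in the other libraries.

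Il1rn encodes the IL-1 receptor antagonist, which binds the IL-1 receptor without activating it, and was counted in every library. The gene lies on chromosome 2 from 24336853 to 24351494, far from Il1b. It was at 77.1, 63.0 and 63.4 CPM in WT libraries 1, 5 and 6, and at 61.3, 62.7 and 61.7 CPM in PYK2 KO libraries 2, 3 and 4. The genotypes did not overlap, with PYK2 KO lower, as happened in either direction in 10.2% of all tested genes. The gap between the lowest WT and the highest PYK2 KO library was small and WT library 1 stood above the other WT libraries. Il1rn averaged 67.8 ± 8.04 CPM in WT mice and 61.9 ± 0.729 CPM in PYK2 KO mice, with a log2 fold change of -0.14 (SE 0.11, edgeR adjusted p = 0.935). Without WT library 1 the log2 fold change was -0.03.

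Agonist and antagonist were also set against each other within each library, which no scaling between libraries can move. The log2 ratio of Il1b to Il1rn, with 0.5 added to each count, was -6.76 ± 1.60 in WT and -7.05 ± 1.26 in PYK2 KO mice. The lowest value of either genotype, -8.50 in WT library 6 and in PYK2 KO library 3, came from libraries with 0 counts of Il1b and was set by the added 0.5. The difference of -0.28 therefore rested on that choice, and it was -0.12 with 2 added to each count and -0.63 with the counts of a genotype summed. Leaving out WT library 5 turned it to 0.42, and leaving out PYK2 KO library 3 to 0.45.

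Il18, on chromosome 9 from 50554827 to 50581840, encodes IL-18 and unlike Il1b was counted in all libraries. It was at 12.3, 14.6 and 13.3 CPM in WT libraries 1, 5 and 6, and at 12.8, 11.4 and 11.0 CPM in PYK2 KO libraries 2, 3 and 4. The PYK2 KO libraries 3 and 4 lay below all WT libraries, and PYK2 KO library 2 lay among them. The log2 fold change was -0.18 (SE 0.19, edgeR adjusted p = 0.949), and its 95% interval from -0.59 to 0.22 reached from 0.666-fold to 1.16-fold of the WT level. Of the genes that overlap it, Bco2 and Tex12 on the opposite strand had 28 and 0 counts over the 6 libraries, against 138 WT and 110 PYK2 KO counts of Il18.

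Tnf, on chromosome 17 from 35199381 to 35202007, had the largest SD relative to its mean of the 7 tested genes. It was at 56.4, 67.2 and 116 CPM in WT libraries 1, 5 and 6, and at 68.3, 84.2 and 51.9 CPM in PYK2 KO libraries 2, 3 and 4. WT library 6 was above all others, and the remaining WT libraries lay within the range of the PYK2 KO libraries. Tnf averaged 79.8 ± 31.6 CPM in WT mice and 68.1 ± 16.2 CPM in PYK2 KO mice, with a log2 fold change of -0.21 (SE 0.21, edgeR adjusted p = 0.948). Its 95% interval ran from 0.632-fold to 1.18-fold of the WT level. The direction rested on WT library 6, without which the log2 fold change was 0.14, while it was -0.42 without WT library 1.

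The sequences in front of Il1b and Tnf are shown because these are the classical NF-κB-driven cytokine genes of the list, the one at the floor and the other well counted in the same libraries. Each is the 250 bases before the transcription start on the minus strand, from RefSeq's annotation of GRCm38.p6, at chr2:129371140-129371389 for Il1b and chr17:35202008-35202257 for Tnf. Capitals mark matches, on either strand, to a TATA box (TATAAA) or to the core of PU.1 (GAGGAA), a transcription factor of the macrophage lineage.
Il1b: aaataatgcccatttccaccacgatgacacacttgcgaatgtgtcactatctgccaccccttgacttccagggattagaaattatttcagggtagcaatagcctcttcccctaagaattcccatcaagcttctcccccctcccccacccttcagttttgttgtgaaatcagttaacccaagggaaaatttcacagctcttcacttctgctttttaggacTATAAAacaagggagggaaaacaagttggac
Tnf: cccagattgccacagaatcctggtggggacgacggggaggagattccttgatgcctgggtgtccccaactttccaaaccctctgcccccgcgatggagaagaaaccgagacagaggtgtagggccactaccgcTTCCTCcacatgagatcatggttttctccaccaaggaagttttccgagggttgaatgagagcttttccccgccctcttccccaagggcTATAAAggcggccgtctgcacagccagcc

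The TATA box began 31 bases before the start of Il1b and 29 bases before that of Tnf, and 12.4% of 32851 promoter windows of this length held one on either strand. The PU.1 core occurred once in front of Tnf and 0 times in front of Il1b, and 23.3% of all windows held it. The strict NF-κB consensus of 10 bases was found in neither window and in 7.25% of all windows. These matches are descriptions of the sequence, and a missing match says only that these letters are not in this window.

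Il1rl2, the gene of the IL-36 receptor on chromosome 1 from 40324610 to 40367562, was the only receptor of the IL-1 family among the 10 genes. It had 6, 6 and 8 counts in WT libraries 1, 5 and 6, and 6, 4 and 11 counts in PYK2 KO libraries 2, 3 and 4. All libraries were above the floor but below the filter, and the genotypes overlapped. The 20 WT and 21 PYK2 KO counts gave a ratio of 1.17 with an exact 95% interval from 0.602 to 2.27, so a change of up to that size was not detectable at this depth.

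The inflammasome genes were counted at very different depths, with the sensor and the adaptor well covered and the protease close to the limit of the test. Nlrp3, the sensor, on chromosome 11 from 59541568 to 59566956, was at 54.1, 52.6 and 62.4 CPM in WT libraries 1, 5 and 6, and at 57.7, 62.7 and 49.2 CPM in PYK2 KO libraries 2, 3 and 4. The means of 56.4 ± 5.26 and 56.5 ± 6.84 CPM were nearly the same, and the log2 fold change of 0.01 (SE 0.12, edgeR adjusted p = 0.999) had a 95% interval from 0.844-fold to 1.19-fold. Leaving out single libraries moved it between -0.07 and 0.10.

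Pycard, on chromosome 7 from 127989708 to 127993867, encodes ASC, which links the sensor to caspase-1. It was at 343, 321 and 375 CPM in WT libraries 1, 5 and 6, and at 378, 321 and 363 CPM in PYK2 KO libraries 2, 3 and 4. Each genotype had libraries near both ends of this range. The log2 fold change was 0.03 (SE 0.09, edgeR adjusted p = 0.993), with a 95% interval from 0.896-fold to 1.17-fold, and it ran from -0.02 to 0.10 when single libraries were left out.

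Casp1, the gene of caspase-1 itself on chromosome 9 from 5298517 to 5307265, had 12, 13 and 7 counts in WT libraries 1, 5 and 6, and 9, 5 and 9 counts in PYK2 KO libraries 2, 3 and 4. It was above the floor in every library and below the filter. The 32 WT and 23 PYK2 KO counts gave a ratio of 0.799 with an exact 95% interval from 0.446 to 1.41. When genes with at least 1 count were tested without a filter, Casp1 had a log2 fold change of -0.33 (edgeR adjusted p = 0.879), Il1b of -0.80 (adjusted p = 0.848) and Il1rl2 of 0.18 (adjusted p = 0.957), values that for Il1b depend on the prior count.

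Both TNF receptor genes varied little between libraries. Tnfrsf1a, on chromosome 6 from 125349362 to 125362484, encodes TNFR1, the receptor with a death domain, and was at 336, 344 and 331 CPM in WT libraries 1, 5 and 6, and at 369.6, 340.2 and 340.4 CPM in PYK2 KO libraries 2, 3 and 4. Only PYK2 KO library 2 lay above the WT range, as the others lay inside it. The log2 fold change was 0.05 (SE 0.08, edgeR adjusted p = 0.969), with a 95% interval from 0.923-fold to 1.17-fold.

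Tnfrsf1b, on chromosome 4 from 145213463 to 145246870, encodes TNFR2, which has no death domain. It was at 210.4, 193 and 188 CPM in WT libraries 1, 5 and 6, and at 202, 204 and 203 CPM in PYK2 KO libraries 2, 3 and 4. The PYK2 KO values lay close together within the WT range. The log2 fold change was 0.04 (SE 0.08, edgeR adjusted p = 0.984), with a 95% interval from 0.916-fold to 1.16-fold. The log2 ratio of Tnfrsf1b to Tnfrsf1a within a library was -0.77 ± 0.09 in WT and -0.78 ± 0.07 in PYK2 KO mice, a difference of -0.01 (two-sided exact permutation test, p = 1, with 0.1 the smallest possible).

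**Figure D2:**
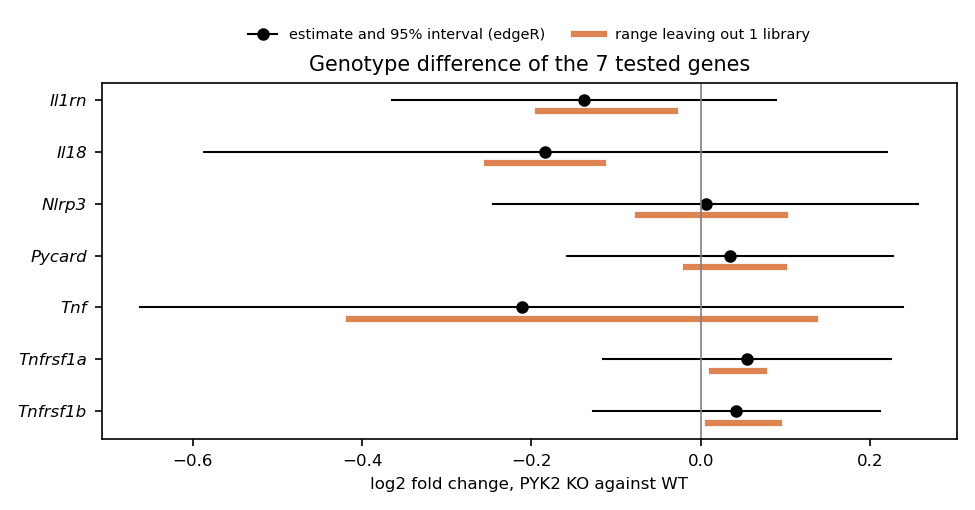
Log2 fold change of PYK2 KO against WT BMDMs (horizontal axis) for the 7 tested genes, with black points for the estimate, black lines for the 95% interval of the edgeR fit and orange bars for the range over fits that left out 1 library. All 7 intervals include 0, and those of Il18 and Tnf are the widest, reaching -0.59 and -0.66.

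The precision of these comparisons is given by the intervals in the plot of fold changes. For 5 of the 7 tested genes (Il1rn, Nlrp3, Pycard, Tnfrsf1a and Tnfrsf1b) the 95% interval lay within a 1.5-fold change in either direction, so that a change of that size at the RNA level would lie outside it. For Il18 and Tnf a decrease of about that size remained inside the interval. The 6 other settings and 6 fits without 1 library each called 0 of the 10 genes, and the smallest adjusted p-value in any of them was 0.784 (edgeR), for Tnf without WT library 1. Il1b and Il1rl2 were tested only without a filter, and Casp1 there and in 3 fits without 1 library. The smallest unadjusted p-value was 0.0468 (edgeR), for 1 gene without a filter.

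Among the inflammatory target genes, the chemokine genes Ccl2, Ccl7 and Cxcl2 were set beside Tnf after their values were seen. Ccl2, a chemoattractant of monocytes, was at 234, 279.9 and 535 CPM in WT libraries 1, 5 and 6, and at 249.9, 341 and 224 CPM in PYK2 KO libraries 2, 3 and 4. Ccl7, a related chemoattractant, was at 36.3, 51.5 and 104 CPM in WT and at 34.0, 69.3 and 37.6 CPM in PYK2 KO libraries in the same order, and Cxcl2, which attracts neutrophils, at 17.4, 11.5 and 35.4 CPM and at 10.6, 22.5 and 10.1 CPM. In all 4 genes WT library 6 was highest of the 6 and PYK2 KO library 3 was highest of its genotype. The order of the other libraries was not the same in all, as Tnf and Ccl7 were higher in WT library 5 than in WT library 1 and Cxcl2 was lower. None of these chemokine genes passed in the comparison of genotypes (log2 fold changes of -0.36, -0.42 and -0.55, edgeR adjusted p = 0.912, 0.932 and 0.912). These values rested on WT library 6, without which they were 0.08, 0.09 and -0.03.

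**Figure D3:**
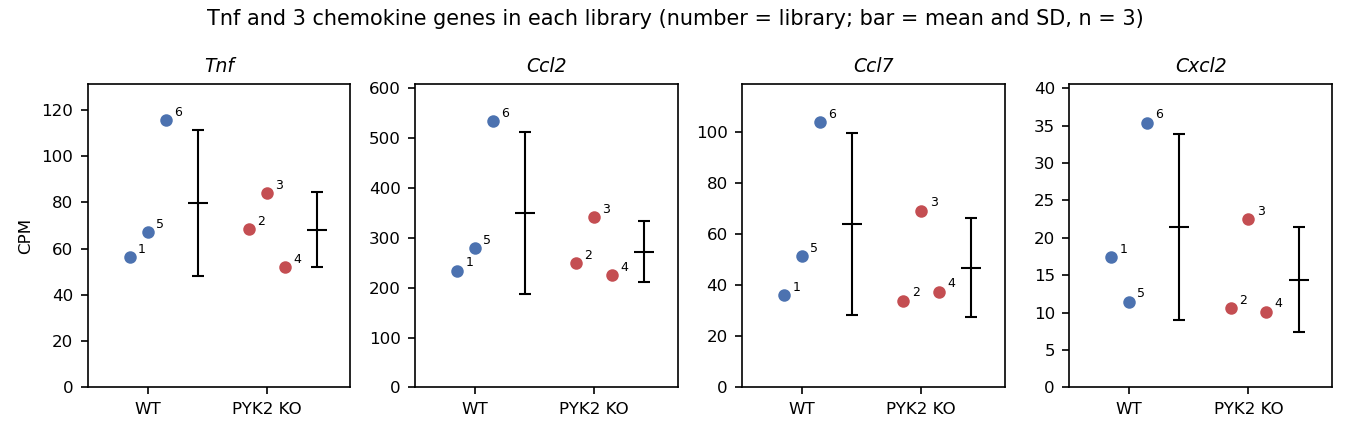
Level in CPM (vertical axes from 0) of Tnf, Ccl2, Ccl7 and Cxcl2 in the 3 WT and 3 PYK2 KO libraries, with the library number beside each point and the mean and SD (n = 3) as a bar. WT library 6 is the highest of all libraries in each gene, from 35.4 CPM for Cxcl2 to 535 CPM for Ccl2.

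Among the 9815 tested genes, those whose log2 CPM was most like that of Tnf over the 6 libraries were Cdk18, Alg9 and Tmem171, with Pearson's r of 0.999, 0.993 and 0.985, and Ccl2 ranked 6 with 0.975, Ccl7 ranked 55 with 0.918 and Cxcl2 ranked 239 with 0.835. Those most like Il1rn were Cracr2b, Dop1b and Crcp, with r of 0.997, 0.994 and 0.980. These are the extremes of a search over all tested genes in 6 libraries and are given as a description only.

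The wider pathways were described with 8 lists that name 129 further genes of the count matrix, of which 96 were tested. Of these 96, 1 passed at an adjusted p-value under 0.05, or 1.04% against 0.255% of all tested genes, and 8 (8.33%) were under 0.05 before adjustment, where the share of all tested genes was 6.03%. Their median log2 fold change was -0.0016. The 1 gene that passed was Saa3, and its rise was known when the lists were written.

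In the list of IL-1 family ligands and antagonists, 3 of the 11 genes in the matrix were tested and 0 passed. They were Il1rn, Il18 and Il18bp, the secreted inhibitor of IL-18 (log2 fold change of -0.10, edgeR adjusted p = 0.993). Il33, Il1f5, Il1f6, Il1f8 and Il1f10 had 0 counts in all 6 libraries. Of 8 receptors only Il1rap, the accessory chain shared by several IL-1 family receptors, and the inhibitory receptor gene Sigirr were tested, with log2 fold changes of 0.10 and 0.04. Il1r1, the signaling IL-1 receptor, had 2, 0 and 2 counts in WT libraries 1, 5 and 6 and 0 in each PYK2 KO library, so both genotypes were at the floor. The decoy receptor Il1r2 had between 1 and 4 counts in each library.

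The signaling chain below these receptors was measured more fully. Of 15 genes 13 were tested and 0 passed, with log2 fold changes between -0.13 and 0.27. The genes with the smallest p-values were Irak4, a kinase bound through MyD88 (0.19, adjusted p = 0.935), and Tab1, a partner of the kinase TAK1 (-0.13, adjusted p = 0.946, both from edgeR). In the list of inflammasome sensors and effectors 23 of 30 genes were tested and 0 passed, with a median of 0.03. The smallest p-values were those of Gbp2, an interferon-induced GTPase that averaged 4.72 ± 0.768 CPM in WT mice and 8.60 ± 1.25 CPM in PYK2 KO mice (log2 fold change of 0.85, edgeR adjusted p = 0.509), and Aim2, the sensor of cytosolic DNA (0.24, adjusted p = 0.862). In both genes, and in Casp8, the PYK2 KO libraries were above the WT libraries without overlap. In Brcc3, the gene of a deubiquitinase that acts on NLRP3, they were below without overlap, with 14, 18 and 17 counts in WT libraries 1, 5 and 6 against 8, 9 and 11 in PYK2 KO libraries 2, 3 and 4 (log2 fold change of -0.67, adjusted p = 0.867). These are 4 of the 23 tested genes, where 10.2% of all tested genes did not overlap. Gsdmd, whose product forms the pore through which IL-1β leaves the cell, had a log2 fold change of 0.01 (adjusted p = 0.996).

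Of the 8 TNF ligands and receptors 6 were tested and 0 passed. Besides Tnf and its receptors these were Adam17 (log2 fold change of 0.09), Rhbdf2 (-0.05), which helps ADAM17 to mature, and Ltb, a ligand related to TNF, which had 12, 12 and 9 counts in WT libraries 1, 5 and 6 and 2, 8 and 11 counts in PYK2 KO libraries 2, 3 and 4 (-0.50, edgeR adjusted p = 0.937). Without PYK2 KO library 2 the log2 fold change of Ltb was -0.07. In TNF receptor signaling 22 of 23 genes were tested, 0 passed and the median was -0.04. Otulin, which removes linear ubiquitin chains, averaged 139.6 ± 1.35 CPM in WT mice and 122 ± 3.08 CPM in PYK2 KO mice, and Rbck1, a subunit of the complex that builds these chains, at 86.1 ± 5.09 and 73.5 ± 5.38 CPM. Their log2 fold changes of -0.19 and -0.23 did not pass (edgeR adjusted p = 0.728 and 0.735). They were the only genes of the list under 0.05 before adjustment, 2 of 22 against 6.03% of all tested genes. The genotypes did not overlap in 6 of the 22 genes, with PYK2 KO above WT in 2 and below in 4, against 10.2% of all tested genes.

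Of the 17 NF-κB subunits and regulators all were tested and 0 passed. Nfkbiz, an inducible nuclear regulator, averaged 12.1 ± 1.29 CPM in WT mice and 7.99 ± 1.44 CPM in PYK2 KO mice (log2 fold change of -0.60, edgeR adjusted p = 0.650), and Nfkb2, the gene of p100, had a log2 fold change of -0.18 (adjusted p = 0.862). In both, as in Tbk1, the PYK2 KO libraries were below the WT libraries without overlap, and in Chuk they were above. These are 4 of the 17 genes, against 10.2% of all tested genes. Nfkbia and Tnfaip3, feedback inhibitors that NF-κB induces, had log2 fold changes of 0.0054 and 0.03.

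Among 27 inflammatory target genes 17 were tested, and Saa3, an acute-phase protein gene that macrophages express, was the only one past the threshold. Saa3 averaged 94.7 ± 6.58 CPM in WT mice and 201 ± 16.1 CPM in PYK2 KO mice, with a log2 fold change of 1.09 (SE 0.09, edgeR adjusted p = 5.67e-06). Acod1, which encodes the enzyme that makes itaconate, had a log2 fold change of 0.59 (adjusted p = 0.401) with overlapping genotypes. In the other direction the chemokine genes Ccl3 and Ccl4 had log2 fold changes of -0.27 and -0.24 (adjusted p = 0.739 and 0.724), also with overlapping genotypes. These 4 genes were under 0.05 before adjustment, 2 higher and 2 lower in PYK2 KO, where the share of all tested genes was 6.03%. Of all 17 tested genes 7 were above and 10 below 0, with a median log2 fold change of -0.02. Il6, Il12a, Il12b and Il23a had 0 counts in all 6 libraries, and Nos2 and Ptgs2 had at most 1 and 2 counts in any library.

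**Figure D4:**
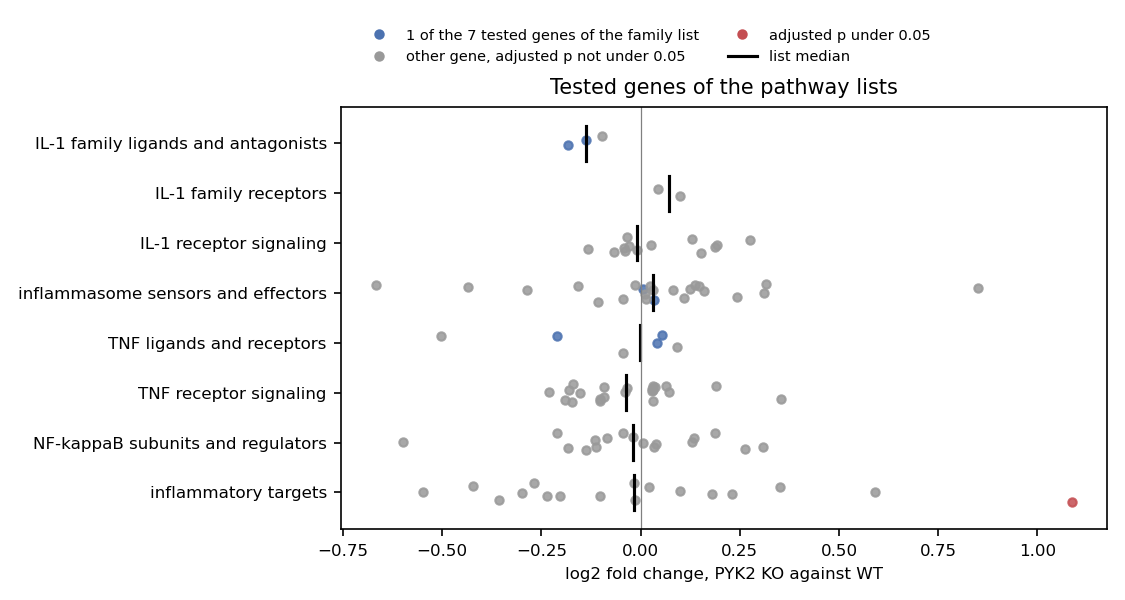
Log2 fold change of PYK2 KO against WT BMDMs (horizontal axis) for the tested genes of the 8 pathway lists (rows), with the 7 tested genes of the IL-1, TNF and inflammasome list in blue, genes with an adjusted p-value under 0.05 in red and the median of each list as a black line. The list medians lie between -0.14 and 0.07, and Saa3 at 1.09 is the only red point.

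Other cells that express these genes were followed by their markers. Of 14 neutrophil markers 10 were tested and 0 passed. The log2 fold change was above 0 for 7 and below 0 for 3 of them, from -0.26 for Camp to 1.19 for Mpo. At an unadjusted p-value under 0.05, where 6.03% of all tested genes lay, 4 (Mpo, S100a9, Mmp8 and Prtn3) were higher on average in PYK2 KO BMDMs and 0 lower. The genotypes did not overlap for Mpo and Prtn3 but did for S100a9 and Mmp8. S100a9 stood at 70.7, 30.0 and 34.0 CPM in WT libraries 1, 5 and 6. In PYK2 KO libraries 2, 3 and 4 it stood at 50.7, 93.2 and 103 CPM. The libraries with the higher B2m counts were also the higher ones in S100a9 and Mmp8, and the cause of this shared split was not tested. The summed level of the list ran from 323 to 430.1 CPM in WT and from 358 to 576 CPM in PYK2 KO libraries. Without a filter on low counts S100a9 and Mmp8 passed (edgeR adjusted p = 1.45e-10 and 0.00043, against 0.537 and 0.596 with it). B2m, whose genotypes also overlapped, passed without the filter too (edgeR adjusted p = 4.19e-33, against 0.702 with it). Ly6g, which defines mature neutrophils, had 1 count in PYK2 KO library 2 and 0 in the others.

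Of 9 monocyte markers 5 were tested and 0 passed, with 4 above 0 and 1 below, Nr4a1 at a log2 fold change of -0.54 that was -0.04 without PYK2 KO library 4. At an unadjusted p-value under 0.05 (6.03% of all tested genes) 3 of them (Ly6c2, Hp and F10) were higher in PYK2 KO BMDMs and 0 lower, and without a filter Hp and F10 passed (edgeR adjusted p = 0.0054 and 0.014). The summed level of the list ran from 79.6 to 93.7 CPM in WT and from 117 to 123 CPM in PYK2 KO libraries. Most of it came from Hp and F10, which averaged 21.6 and 38.6 CPM in WT and 34.6 and 55.2 CPM in PYK2 KO mice. The untested markers did not share 1 direction. Ccr2 had 23 WT and 10 PYK2 KO counts, Vcan 7 and 14, Cx3cr1 17 and 17, and Plac8 1 and 3. The part of these cells in the values of Saa3 or of the 10 genes was not tested.

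The dendritic cell list summed to between 562 and 607 CPM in WT and between 482 and 621 CPM in PYK2 KO libraries, nearly all of it from Bst2 (log2 fold change of -0.04, edgeR adjusted p = 0.993), which many cell types express. Of its other 11 genes 7, among them Flt3 and Zbtb46, had 0 counts and 4 were at the floor in every library. The B cell list summed to between 372 and 403 CPM in WT and between 337 and 380.2 CPM in PYK2 KO libraries. This came from the immunoglobulin gene Ighm (-0.11) and from Cd79b (-0.24, both edgeR adjusted p = 0.935), with a few counts of Igkc, while the other 4 genes of the list, Ms4a1 among them, had 0 counts. None of the T and NK cell, mast cell or stromal markers was tested, and the highest sums of these lists in any library were 2.42, 1.60 and 2.57 CPM. Of the defining genes, Cd3e, Cpa3, Dcn and Lum had 0 counts, as had all 6 erythroid markers.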

How the data were processed

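RNA-seq of BMDMs from 3 WT and 3 PYK2 KO mice was analyzed. The libraries follow MARS-seq in its bulk form, and the authors used the UTAP pipeline for mapping and for the count matrix. The submitters' processing notes name cutadapt, STAR and mm10, without versions. The deposited values are whole-number counts without normalization, in 6 columns matched to mice by name, with 0 columns of other samples. Whether molecular identifiers were collapsed or strand was used is not given in the sources used here, so the exact intervals of the 3 untested genes cover counting error only.

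The test was the quasi-likelihood F test of edgeR 4.0.16 (R 4.3.3) on genotype alone, after filterByExpr and TMM scaling, with Benjamini-Hochberg adjustment over all tested genes and a threshold of 0.05. The F statistic gave the standard errors (SE) and 95% intervals of the tested genes, which include the spread between mice. A gene was at the floor at 3 counts or fewer. DESeq2 1.42.0, limma-voom (limma 3.58.1), other normalizations and filters and fits without 1 library were alternatives. In counts simulated for this comparison (9726 genes), the test called 45.6% of genes with a log2 change of 0.5, 81.2% at 1, 100% at 2 and 0.126% of unchanged genes. These shares are over genes of all levels, drawn with the dispersions fitted to these data, and do not hold for any single gene named here.

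The 10 genes, the lists and the rule for named genes (the 10 genes, Ptk2b, B2m, and from each pathway list the genes that passed and the 2 with the smallest p-values) were chosen with earlier results of these data known. Further genes are named after their values were seen. In the ligand list, 4 newer IL-36 symbols are not in the matrix, which uses the older ones. Gene positions and overlaps were taken from GENCODE M21 (GRCm38, the assembly of mm10) by symbol, and promoter sequences from RefSeq (GRCm38.p6).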

Additional observations from a re-analysis of the deposited data

How the results depend on the processing

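No paired analysis was possible because WT and PYK2 KO libraries have no replicate number in common. The number of the 10 genes called was 0 in all 6 other settings and all 6 fits without 1 library, although Il1b and Il1rl2 were tested only without a filter. Of 84 log2 fold changes of the 7 tested genes under these alternatives, 76 kept their direction and stayed short of the threshold and 8 turned, with causes that were not tested. Without a filter Nlrp3 was at -0.00088. With 1 library left out the log2 fold change ran from -0.074 to 0.10 for Nlrp3, from -0.018 to 0.10 for Pycard and from -0.42 to 0.14 for Tnf. The other tested members kept their direction, from -0.19 to -0.03 for Il1rn, from -0.25 to -0.12 for Il18, from 0.01 to 0.07 for Tnfrsf1a and from 0.01 to 0.09 for Tnfrsf1b. Sigirr, which is not one of the 10 genes, ran from -0.17 to 0.18. Casp1 passed the filter in 3 of these fits, with values from -0.46 to -0.15. The difference in the log2 ratio of Il1b to Il1rn ran from -1.15 to 0.45 and that of Tnfrsf1b to Tnfrsf1a from -0.037 to 0.040. Over all genes 159 passed without a filter, and from 14 to 34 with 1 library left out. In the pathway lists 3 genes (Acod1, Ccl2 and Saa3) passed without a filter, and from 1 to 2 with 1 library left out, where Acod1 joined Saa3 without WT library 6. Of the neutrophil and monocyte markers 2 each passed without a filter. The depth limits Il1b, Casp1 and Il1rl2 most, which had 12, 55 and 41 counts over all libraries.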
